A study of Mus musculus with 20 samples.

Results

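The expression of 9 genes that make, bind, sense and break down retinoic acid was followed through embryoid body (EB) culture of 4 mouse induced pluripotent stem cell (iPSC) lines. The genes were Aldh1a2, Rara, Rarb, Rarg, Cyp26a1, Cyp26b1, Crabp1, Crabp2 and Stra6, chosen by name as members of the pathway and matched by symbol to Ensembl identifiers, 9 of the 55573 genes in the deposited table. Cyp26a1, Stra6 and Rara were higher in the wild type (WT) line WT#20D-17 than in the other WT line, WT#1-4, and Cyp26a1 was 88.2 times higher by the means over the days. Stra6 reached 10 counts in WT#20D-17 alone and so entered the test only through the line where it is high. Cyp26b1 was read at most once in any Nox4-/- library and between 4 and 33 times in every WT library. Rarg was higher on day 14 than on day 0 in WT#1-4 and both Nox4-/- lines, where it reached 168.5, 165 and 104 CPM (counts scaled to library size), and lower in WT#20D-17, where it ended at 23.7 CPM.

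Retinoic acid is a vitamin A derivative that acts as a signal in the embryo. Retinol can enter cells through the membrane receptor Stra6, and after a first oxidation to retinal the enzyme Aldh1a2 makes retinoic acid from it. Inside the cell the acid is carried by Crabp1 and Crabp2, and Crabp2 can hand it to the nuclear receptors Rara, Rarb and Rarg, which pair with retinoid X receptors on DNA. Cyp26a1 and Cyp26b1 are cytochromes that oxidise the acid and so end the signal. Rarb, Cyp26a1 and Stra6 are known as genes that retinoic acid itself switches on, and the acid is used in EB culture to direct cells to neural and endodermal fates.

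RNA-seq was performed once per line on days 0, 3, 5, 7 and 14, which gave 20 libraries. WT#1-4 and WT#20D-17 were wild type, and Nox4-/-#5-8 and Nox4-/-#5-23 were knockouts of Nox4, an NADPH oxidase that makes reactive oxygen species. By the paper's methods, iPSC lines were clones picked after embryonic fibroblasts had been given viruses for Oct4, Sox2, Klf4 and c-Myc. They were kept with LIF on mitomycin C-treated fibroblast feeders, then grown without LIF as hanging drops and plated on gelatin. WT#20D-17 is labelled wild type but is not named in the paper, and whether these methods hold for it was not settled here. The methods name CF-1 embryos as a source of fibroblasts. The strain of the Nox4-/- mice, and any addition of retinoic acid, were not given in the sources used here. With 1 library per line and day, the days stand as the repeats of a line, and p-values measure the spread of these libraries.

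Nox4 was read 3 to 22 times per library in WT#1-4, 56 to 203 times in WT#20D-17, and at most 2 times in the Nox4-/- lines. Libraries held 20294968 to 27708023 estimated counts, so that a floor of 3 counts stood at 0.109 to 0.157 CPM. WT#20D-17 stood apart from the other lines in markers of cell type. The summed level of 8 endoderm markers was 224 to 3990 CPM in WT#20D-17 and 0.076 to 5.9 CPM in the other 3 lines, and 5 early mesoderm markers summed to 38.5 to 229 CPM against 1.78 to 16.0 CPM. Of 6 pluripotency markers, Zfp42 had a count of 0 in all 15 libraries of the other lines, day 0 included, Nanog had at most 27 counts, Esrrb at most 5 and Dppa5a at most 56, while Pou5f1 (Oct4, also among the viral factors) had 25771 to 151651. In WT#20D-17, Nanog had 160 to 9335 counts and Zfp42 147 to 1016, while Pou5f1 was lower, at 405 to 27708. Utf1 had 201 to 7577 counts in WT#20D-17, 130 to 224 in WT#1-4 and at most 1 in the Nox4-/- lines. In bulk samples, fewer cells of a type and less RNA per cell cannot be told apart.

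The retinoid receptors bind pairs of 6-base motifs, and a direct repeat spaced by 5 bases (DR5) is their classical element. RefSeq promoter windows on GRCm38.p6, from 250 bases before to 50 after a start, were available for 8 of the 9 genes and were searched on both strands for direct repeats of AGGTCA, in which the first base could also be G and the third also T, with spacers of 1, 2 and 5 bases. A DR5 was found in windows of Rarb and Cyp26a1 and of 0 other members, against 31 of 27025 genes (0.115%). Windows on 1 chromosome, which holds no member, were left out of the search and of all shares drawn from it. The repeats with spacers of 1 and 2 bases, which 0.263% and 0.311% of genes held, were not matched in the windows of the members. The 150 bases before the start are shown for both members with a DR5, on the gene's strand and with the repeated motifs in capitals. They lie at chr14:16575477-16575626 (minus strand) and chr19:37697658-37697807 (plus strand).
Rarb: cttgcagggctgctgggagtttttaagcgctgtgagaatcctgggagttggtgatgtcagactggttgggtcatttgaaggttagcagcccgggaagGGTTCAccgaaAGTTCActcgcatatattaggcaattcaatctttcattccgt
Cyp26a1: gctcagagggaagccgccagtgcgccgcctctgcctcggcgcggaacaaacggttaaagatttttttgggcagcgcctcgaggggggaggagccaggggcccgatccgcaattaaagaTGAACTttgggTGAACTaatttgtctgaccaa
The Rarb match began 53 bases before the start, and the Cyp26a1 match, which is read on the opposite strand, lay 32 to 16 bases before it. A match of letters describes the promoter and does not show that a receptor was bound there.

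**Figure D1:**
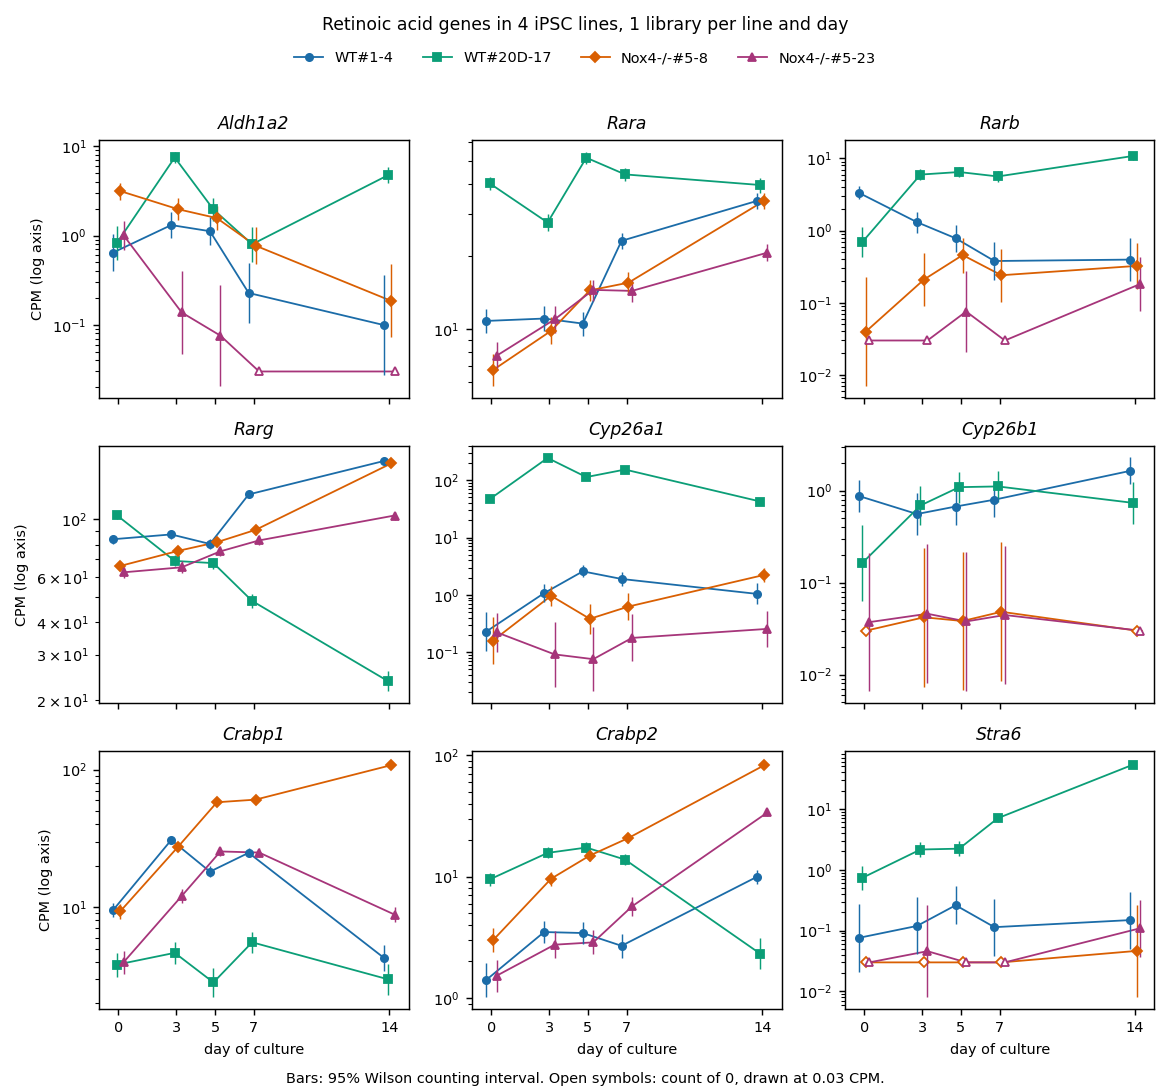
TMM-scaled CPM (log axis) of the 9 genes against the day of culture, with 1 point per library, a colour and symbol per line and bars for the 95% Wilson counting interval; open symbols are counts of 0, drawn at 0.03 CPM. Cyp26a1 and Stra6 lie higher in WT#20D-17 than in the other 3 lines on every day, and Cyp26b1 lies lower in both Nox4-/- lines than in both WT lines.

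A gene was counted as changed at an adjusted p under 0.01. Of the 9 members, 4 were higher in WT#20D-17 than in WT#1-4 and 1 was lower, where 20.4% of all 17827 genes tested were higher and 19.4% lower. Stra6, 1 of the 4, reached 10 counts in the 5 libraries of WT#20D-17 alone and so entered the fit only through the line where it is high, which leaves 3 higher without it. The median log2 fold change was 2.09 over the 9 members, Stra6 included, and 0.00 over all genes tested. Without days 3, 5 or 7 the number of members that passed fell from 5 to 3, because Crabp1 and Crabp2 no longer passed. Stra6, Cyp26a1 and Rara passed whichever day was left out.

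With all 4 lines in the fit, 2 members (Rara and Stra6) differed among the days, against 18% of all genes. On days 3, 5 and 7, 0 members differed from day 0 in edgeR, with 0.163%, 2.55% and 11.9% of all genes passing and 1, 2 and 5 members at an unadjusted p under 0.05. On day 14, 3 members (Rara, Crabp2 and Stra6) were higher than on day 0 and 0 were lower, against 14.8% and 14% of all genes. The members that passed on day 14 depended on the lines: without WT#20D-17 there were 4, Rara, Crabp2 and Rarg higher and Aldh1a2 lower, and Stra6 was too low to be tested. Without WT#1-4 there were 2, Rarb (log2 fold change 3.96, adjusted p = 0.00221) and Stra6, and without Nox4-/-#5-8 or without Nox4-/-#5-23 there was 1, Stra6.

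Aldh1a2 (chr9:71215789-71296243, plus strand), the enzyme that makes retinoic acid in the early embryo, was scarce in all lines. Its values in WT#20D-17 were 0.820, 7.49, 1.96, 0.799 and 4.72 CPM on days 0, 3, 5, 7 and 14. In WT#1-4 it was 0.646, 1.31, 1.12, 0.228 and 0.0992 CPM, in Nox4-/-#5-8 3.15, 1.97, 1.57, 0.771 and 0.185 CPM, and in Nox4-/-#5-23 1.00, 0.138 and 0.0756 CPM followed by counts of 0 on days 7 and 14. Day 14 was the lowest of the course in WT#1-4 and Nox4-/-#5-8, and 5.76 times day 0 in WT#20D-17, where day 3 was the highest. The ranges of all pairs of lines overlapped. The difference between the WT lines (log2 fold change 2.48, SE 0.87, adjusted p = 0.0245) and the fall to day 14 over all lines (log2 fold change -2.00, SE 1.04, adjusted p = 0.132) did not pass. Without WT#20D-17 the fall to day 14 did (log2 fold change -4.44, adjusted p = 0.00143).

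Rarg (chr15:102234938-102257517, minus strand), the receptor known to predominate in early embryonic cells, held the largest share of receptor transcripts in all libraries but 1. Per kilobase of exon, Rarg made up 83.1% to 90.9% of the summed level of the 3 receptors in WT#1-4 and the Nox4-/- lines, and 72.3%, 68.5%, 55.0%, 50.5% and 33.3% in WT#20D-17 from day 0 to day 14, where Rara exceeded it on day 14 with 54.3%. On the CPM scale Rarg was 83.9, 87.5, 80.4, 125 and 168.5 in WT#1-4 on the 5 days. It was 66.1, 75.6, 81.7, 91.2 and 165 CPM in Nox4-/-#5-8 and 62.4, 65.3, 75.3, 83.0 and 104 CPM in Nox4-/-#5-23, so that day 14 was the highest day in all 3 lines. Its values in WT#20D-17 were 104, 69.1, 67.8, 48.4 and 23.7 CPM, the highest on day 0 and the lowest on day 14. Fitted as a slope over the order of the days, a form of test added after the data were seen, Rarg was the 1 member whose slopes differed among the 4 lines (adjusted p = 0.000487), against 8.74% of all genes. The slopes per step in day were 0.27, -0.47, 0.29 and 0.18 on the log2 scale for WT#1-4, WT#20D-17, Nox4-/-#5-8 and Nox4-/-#5-23. Over all lines the difference between day 14 and day 0 was 0.38 (SE 0.37, adjusted p = 0.427), and without WT#20D-17 it was 1.05 (adjusted p = 0.000106).

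**Figure D2:**
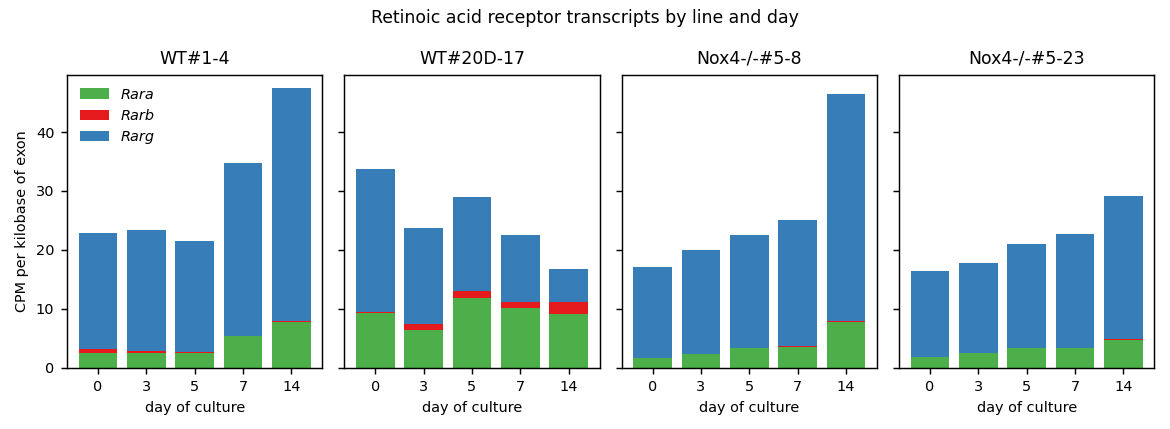
Stacked levels of Rara, Rarb and Rarg in CPM per kilobase of merged exon (bars from 0) by line and day, 1 library per bar. Rarg fills 83.1% to 90.9% of each bar in 3 lines, while in WT#20D-17 its share goes from 72.3% on day 0 to 33.3% on day 14.

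Rara (chr11:98927818-98974942, plus strand), the receptor expressed most widely across tissues, was higher in WT#20D-17 than in the other lines on every day. It was 40.2, 27.7, 51.4, 43.8 and 39.6 CPM in WT#20D-17 and 10.8, 11.0, 10.5, 23.2 and 34.0 CPM in WT#1-4. In Nox4-/-#5-8 it was 6.75, 9.82, 14.4, 15.6 and 34.0 CPM, and in Nox4-/-#5-23 7.73, 10.9, 14.5, 14.4 and 20.7 CPM. The 3 lower lines thus ended 2.68 to 5.04 times above day 0, whereas WT#20D-17 ended at 0.983 times, and the ratio between the WT lines went from 3.73 on day 0 to 1.16 on day 14. The difference between the WT lines passed the test (log2 fold change 1.32, SE 0.26, adjusted p = 0.000471). So did the rise from day 0 to day 14 over all lines (log2 fold change 1.38, SE 0.29, adjusted p = 0.00131), which was 1.84 without WT#20D-17 (adjusted p = 7.99e-05) and had adjusted p between 0.0128 and 0.0317 when any other line was left out.

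Rarb (chr14:16430839-16819156, minus strand), the receptor gene that retinoic acid induces and the bearer of the DR5 shown above, followed opposite courses in the WT lines. It was 0.697, 5.99, 6.50, 5.64 and 10.9 CPM in WT#20D-17 and 3.34, 1.31, 0.783, 0.379 and 0.397 CPM in WT#1-4. The ratio of WT#20D-17 to WT#1-4 was therefore 0.208 on day 0 and 4.57 to 27.4 on the later days. The difference over all 5 days did not pass (log2 fold change 2.09, adjusted p = 0.0542) and passed without day 0 (3.27, adjusted p = 0.000182). The test for a difference among the slopes of the lines gave an adjusted p of 0.0129, which did not pass. In Nox4-/-#5-8 it was 0.0399, 0.210, 0.459, 0.241 and 0.325 CPM, from 1 to 12 counts, below WT#1-4 on each day. In Nox4-/-#5-23 it had 0, 0, 2, 0 and 5 counts, all values below those of both WT lines on every day. Annotated exon sequence of Rarb overlaps Top2b on the opposite strand, and Top2b held 4043 to 7488 counts in Nox4-/-#5-23. The part of Top2b reads in the Rarb counts was not tested, since the strand setting of the counting is not given.

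Cyp26a1 (chr19:37697798-37701536, plus strand), the main retinoic acid hydroxylase of the early embryo and the other bearer of a DR5, separated WT#20D-17 from all other lines. It was 46.6, 245, 113.5, 154 and 42.5 CPM on the 5 days of WT#20D-17, with 809 to 5680 counts. In WT#1-4 it was 0.228, 1.07, 2.57, 1.90 and 1.04 CPM, in Nox4-/-#5-8 0.160, 0.965, 0.382, 0.626 and 2.23 CPM, and in Nox4-/-#5-23 0.0756 to 0.255 CPM from 2 to 7 counts. The ranges of WT#20D-17 and the other lines did not overlap. Between the WT lines the log2 fold change was 6.42 (SE 0.59, adjusted p = 1.76e-07), with ratios from 40.8 on day 14 to 228 on day 3. Within WT#20D-17 the level peaked on day 3, and days 0 and 14 differed by a factor of 0.912. Over all lines 0 days differed from day 0 (day 14 log2 fold change 1.67, adjusted p = 0.0702). Of 8 tested genes with a DR5 in a promoter window, Rarb and Cyp26a1 included, 3 were higher in WT#20D-17 (37.5%) and 0 lower. Among the 6 that are not members 2 were higher (33.3%) and 0 lower. Of all tested genes with a window, 20.8% were higher and 19.9% lower, and a difference of so few genes from these shares was not tested.

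Cyp26b1 (chr6:84571414-84593908, minus strand), the second enzyme of retinoic acid breakdown, split the libraries by genotype at a low level. It had 23, 14, 18, 21 and 33 counts in WT#1-4 and 4, 16, 25, 25 and 14 counts in WT#20D-17, which are 0.556 to 1.64 CPM and 0.164 to 1.11 CPM. In the 10 Nox4-/- libraries it had 0 or 1 count. Summed over the days and set against the library sizes, the 109 counts of WT#1-4 came to 34.2 times the 3 counts of Nox4-/-#5-8 (exact conditional binomial 95% interval 11.4 to 168, counting error alone) and 27.3 times the 4 counts of Nox4-/-#5-23 (10.4 to 102). The 84 counts of WT#20D-17 stood at 29.3 times (9.69 to 145) and 23.4 times (8.82 to 88.0), so that both WT lines exceeded both Nox4-/- lines. The difference between the WT lines did not pass the test (log2 fold change -0.42, SE 0.49, adjusted p = 0.494). Per kilobase of exon, the highest level of Cyp26a1 in any library was 123 CPM and that of Cyp26b1 was 0.306 CPM.

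Crabp1 (chr9:54764748-54773110, plus strand), a binding protein thought to hold retinoic acid in the cytoplasm, was lower in WT#20D-17 than in every other line on each day. It was 3.81, 4.65, 2.83, 5.55 and 2.99 CPM in WT#20D-17 and 9.53, 30.8, 18.1, 24.8 and 4.26 CPM in WT#1-4. In Nox4-/-#5-8 it was 9.30, 27.6, 57.9, 60.5 and 107.8 CPM and in Nox4-/-#5-23 3.98, 12.0, 25.4, 24.9 and 8.82 CPM. Levels on day 3 were thus above day 0 in all 4 lines, and from day 7 to day 14 Nox4-/-#5-8 went up while the other 3 went down. Between the WT lines the log2 fold change was -2.04 (SE 0.54, adjusted p = 0.00457), and between the Nox4-/- lines, #5-23 over #5-8, it was -1.85 (SE 0.53, adjusted p = 0.0406), which did not pass.

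Crabp2 (chr3:87948666-87953376, plus strand), the binding protein that delivers the acid to the receptors, was highest on day 14 in 3 lines. It was 1.41, 3.50, 3.43, 2.69 and 9.97 CPM in WT#1-4, 2.99, 9.61, 14.9, 20.8 and 82.5 CPM in Nox4-/-#5-8, and 1.52, 2.75, 2.87, 5.68 and 33.8 CPM in Nox4-/-#5-23. These are 7.09, 27.5 and 22.2 times the levels of day 0. Its values in WT#20D-17 were 9.47, 15.7, 17.4, 13.8 and 2.31 CPM, so that day 14 was the lowest, at 0.244 times day 0. The rise from day 0 to day 14 over all lines passed (log2 fold change 3.29, SE 0.75, adjusted p = 0.00216), was 4.14 without WT#20D-17 (adjusted p = 1.03e-05), and had adjusted p from 0.0196 to 0.0457 without any other line. Crabp2 was higher in WT#20D-17 than in WT#1-4 on 4 of the 5 days (log2 fold change 2.13, SE 0.62, adjusted p = 0.00892) and lower on day 14, where the ratio was 0.232. Within the CRABP pair, Crabp1 held 81.1% or more of the level per kilobase from day 0 to day 7 in WT#1-4 and the Nox4-/- lines, and 41.4%, 68.3% and 30.1% on day 14.

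Stra6 (chr9:58063788-58153996, plus strand), the receptor for retinol bound to its plasma carrier, was measured above the floor throughout in WT#20D-17 alone. It had 18, 50, 51, 159 and 1025 counts there, or 0.738, 2.15, 2.22, 7.06 and 53.8 CPM, a rise of 72.9 times. WT#1-4 had 2, 3, 7, 3 and 3 counts, and the Nox4-/- lines had 0 to 3. Its 1303 counts over the days in WT#20D-17 were 363 times those of Nox4-/-#5-23 when scaled (4 counts; exact 95% interval 142 to 1340), and Nox4-/-#5-8 had 1 count in all. The fitted log2 fold change between the WT lines was 4.98 (SE 0.67, adjusted p = 1.07e-05), for a gene that was kept by the filter through WT#20D-17 alone, and the fitted difference of day 14 from day 0 (log2 fold change 4.89, SE 0.97, adjusted p = 0.000782) rested on WT#20D-17, without which the gene was too low for the fit. Annotated exon sequence of Stra6 overlaps Ccdc33 on the opposite strand, which had 28 to 335 counts in WT#20D-17 and at most 3 elsewhere. The part of Ccdc33 reads in the Stra6 counts was not tested, since the strand setting is not given. The WT lines, between which Cyp26a1, Rara, Crabp1, Crabp2 and Stra6 differed, also differed in markers of cell type. All 8 endoderm markers were higher in WT#20D-17, as were 4 of 5 early mesoderm, 5 of 6 pluripotency and 3 of 7 fibroblast markers. Of all genes tested, 20.4% were higher and 19.4% lower. The filter kept 2 of the endoderm and 2 of the pluripotency markers through WT#20D-17 alone. The fibroblast sum was lower in WT#20D-17 on day 0 (23.3 against 81.1 CPM) and higher on the later days. The sixth pluripotency marker, Pou5f1, was lower, and of 5 neural markers tested 3 were lower and 1 higher, their list summing to 38.1 to 105 CPM in WT#20D-17 and 320 to 542 CPM in WT#1-4. The part of cell type in the differences of the members was not tested.

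**Figure D3:**
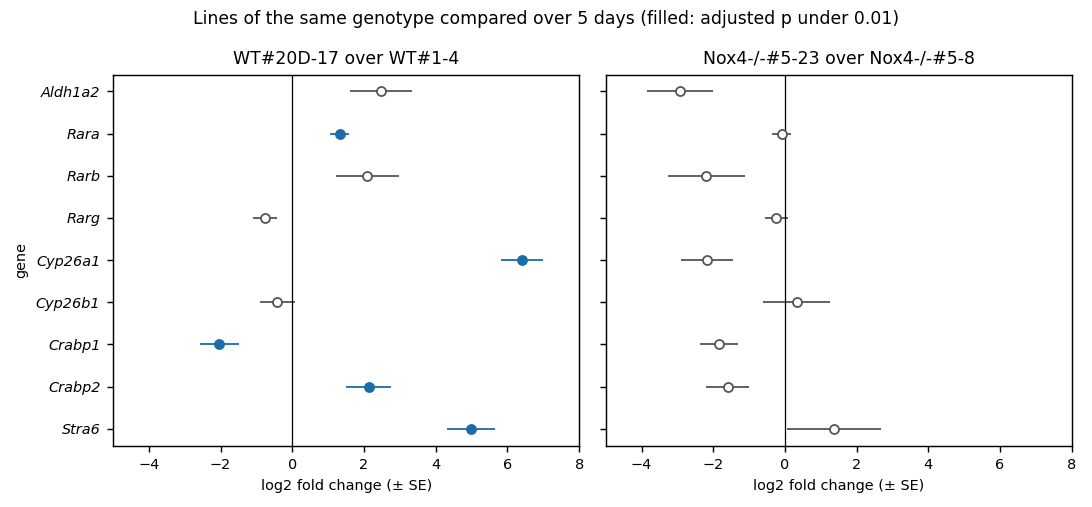
Log2 fold change (± SE) of each gene between lines of the same genotype, WT#20D-17 over WT#1-4 (left) and Nox4-/-#5-23 over Nox4-/-#5-8 (right), from the fit of all 20 libraries; filled points have an adjusted p under 0.01. On the left 5 points are filled, from -2.04 for Crabp1 to 6.42 for Cyp26a1, and on the right 0.

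In edgeR 0 members passed between Nox4-/-#5-23 and Nox4-/-#5-8, against 3.63% of all genes, with a median log2 fold change of -1.60 over the members and -0.02 over all genes tested. Of the members, 4 had an unadjusted p under 0.05, all with lower values in #5-23: Aldh1a2 (log2 fold change -2.92, SE 0.91, adjusted p = 0.0586), Cyp26a1 (-2.18, SE 0.73, adjusted p = 0.0803), Crabp1 and Crabp2 (-1.60, SE 0.60, adjusted p = 0.12). In DESeq2, Aldh1a2 and Crabp1 passed, with adjusted p of 0.00526 and 0.00422. Whether the course over the days differed between genotypes was tested with both lines of each genotype. There, 0 members passed in edgeR and 0 in DESeq2, 0.0112% of all genes passed in edgeR, and Crabp1, Cyp26a1 and Aldh1a2 had an unadjusted p under 0.05 (adjusted p from 0.551 to 0.626).

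The comparison of genotypes set the Nox4-/- clones against a WT clone or both, with the days of a line pooled and edgeR's exact test. It could not separate loss of Nox4 from other differences between the clones. Against WT#1-4, 3 members were lower in the Nox4-/- lines, Cyp26b1 (log2 fold change -4.73, a fitted value on at most 1 count per Nox4-/- library, adjusted p = 2.9e-17), Rarb (-2.98, adjusted p = 0.00139) and Stra6 (adjusted p = 0.00553, on at most 7 counts per library), and 0 were higher, where 3.97% and 1.65% of 33860 genes were lower and higher. Against WT#20D-17, 5 were lower, Rara (-1.44), Rarb (-5.23), Cyp26a1 (-7.85), Cyp26b1 (-4.47) and Stra6, with adjusted p from 4.86e-26 to 2.71e-05, and Crabp1 was higher (3.09, adjusted p = 3.85e-05), where 16% and 9.83% of genes passed. Both comparisons use the same Nox4-/- libraries. Against both WT lines together, 4 were lower (Rarb, Cyp26a1, Cyp26b1 and Stra6), against 9.61% of genes. Aldh1a2 and Rarg changed sign with the WT line, from 0.38 to -1.83 and from -0.33 to 0.47, with none of the 4 values passing.

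Days of a line are not independent, and with lines as the unit there are 2 of each genotype, for which an exact permutation test of a single value cannot give a p below 0.333. With counts summed per line, 0 members and 0 genes passed in edgeR's quasi-likelihood test, the 1 tool run on these sums, where 3 members and 1628 of 20229 genes had an unadjusted p under 0.05, and the log2 fold changes were -4.74 for Cyp26b1 and -4.45 for Rarb, both with an adjusted p of 0.604. Rarb no longer passed without Nox4-/-#5-23, without day 0 or without day 3 (adjusted p from 0.0198 to 0.0564), and Stra6 passed in 1 of the 7 such fits. Cyp26b1 passed in all 7. Fibroblast markers also differed in the comparison with WT#1-4. Their 7 genes summed to 44.5 to 111 CPM in WT#1-4 and 4.99 to 27.0 CPM in the Nox4-/- lines. In the Nox4-/- lines, 5 of the 7 were lower, where 3.97% of all genes were. So were 3 of 5 early mesoderm markers (median log2 fold change -2.53), 1 of 8 endoderm, 1 of 6 neural and 1 of 6 pluripotency markers, and 0 markers were higher. The part of these cell types in the result was not tested.

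**Figure D4:**
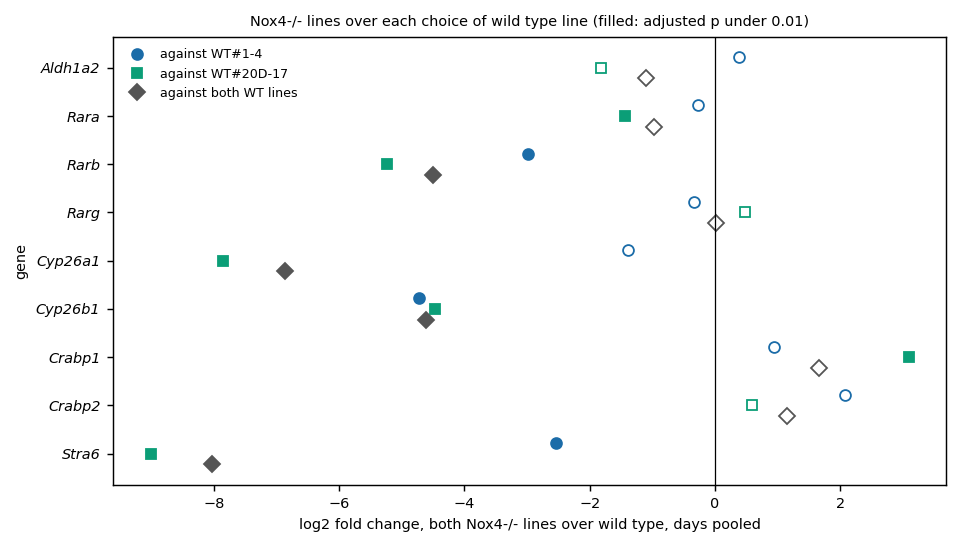
Log2 fold change of both Nox4-/- lines over wild type with the days pooled, for 3 choices of wild type libraries (circles, WT#1-4; squares, WT#20D-17; diamonds, both); filled symbols have an adjusted p under 0.01. Cyp26b1 lies between -4.73 and -4.47 for all 3 choices, while Cyp26a1 goes from -1.39 to -7.85.

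The wider pathway was followed in 3 lists. Of 14 further retinoid carriers and enzymes, 12 were tested and 4 were higher and 2 lower in WT#20D-17 than in WT#1-4, against 20.4% and 19.4% of all genes. Rbp4, the plasma retinol carrier, was 5.00 to 525 CPM in WT#20D-17 and at most 3.12 CPM elsewhere (log2 fold change 8.49 between the WT lines), and the alcohol dehydrogenase Adh7 was lower (-8.01). The carotenoid cleaving enzyme Bco1, 1 of the 4, had 2 to 70 counts in WT#20D-17 and at most 4 elsewhere, and entered the fit through that line alone. On day 14, 5 carriers and enzymes were higher than on day 0 and 1 lower, against 14.8% and 14% of all genes. The largest changes were those of Dhrs9 (at most 42 counts in any library), Rbp4 (log2 fold change 6.47) and Dhrs3 (3.01), the last a retinal reductase that retinoic acid induces. Rbp4 had at most 3 counts in any Nox4-/- library, so that its fitted rise rested on the WT lines. Between genotypes, against WT#1-4, 3 of 14 were lower, where 3.97% of all genes were, among them Rbp4 (-4.20) and the retinol dehydrogenase Rdh10 (-1.11). Rbp4 had 2 to 63 counts per library in WT#1-4 (median 0.114 CPM, near the floor) and at most 3 in the Nox4-/- lines. Among 11 partner receptors and coregulators, 2 were higher and 2 lower between the WT lines, near the shares of all genes, with Ncoa1 at -1.59, Fabp5 at -1.57 and Ncoa3 at 1.17.

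Of 16 genes known to respond to retinoic acid, 14 were tested between the WT lines. Of these, 6 were higher in WT#20D-17 and 3 lower, against 20.4% and 19.4% of all genes. Of the 14, 3 had under 10 counts in every library outside WT#20D-17 and so entered the fit through that line alone. They include 2 of the 6 higher, Cdx1 being 1 of them, which leaves 4. The median log2 fold change over all 14, those 3 included, was 1.41. The endoderm factor Foxa1 and the caudal homeobox gene Cdx1 were among the higher. Foxa1 was 0.902 to 21.1 CPM in WT#20D-17 and at most 0.65 CPM elsewhere, and Cdx1 had 16 to 53 counts against at most 2. Foxa1 belongs to the endoderm, whose markers were high in the same line. The part of cell type in the levels of these responsive genes was not tested. On day 14, 2 of 14 were higher than on day 0 over all lines, near the 14.8% of all genes, Tgm2 (2.50), a transglutaminase that retinoic acid induces, and the homeobox gene Meis1 (2.07). Between genotypes, against WT#1-4, 3 of 16 were lower and 1 higher, against 3.97% and 1.65% of all genes, with Hoxb4 at 2.69, Zfp703 at -1.20 and Hoxb2 read 0 to 6 times per library in WT#1-4 and not at all in the Nox4-/- lines. Between the Nox4-/- lines, where 3.63% of all genes passed, Hoxa3 was higher (1.92) and Tgm2 lower (-1.70) in #5-23.

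**Figure D5:**
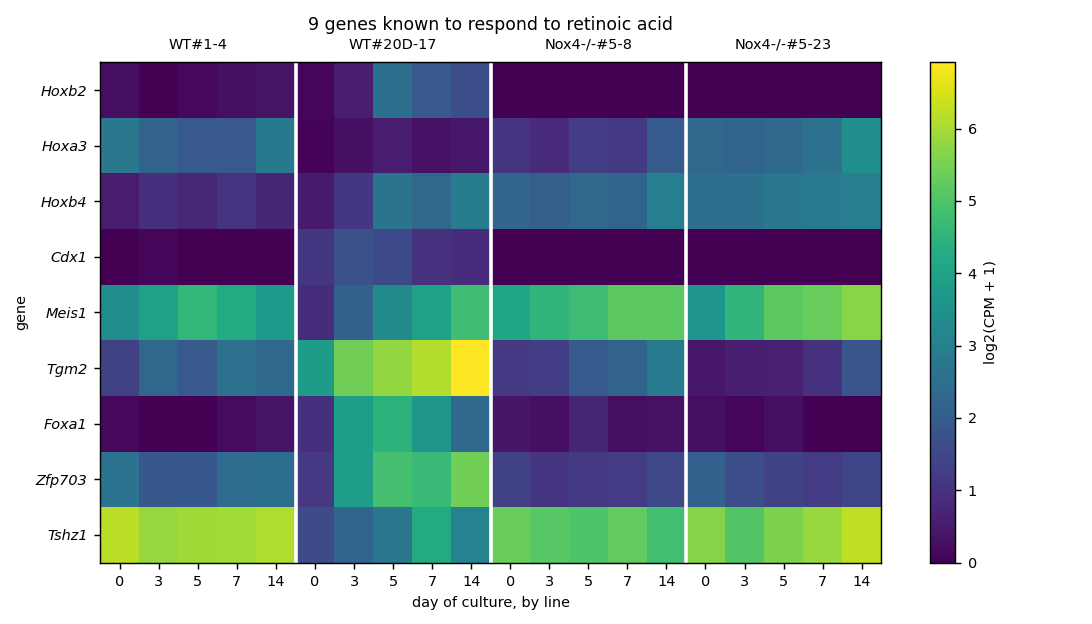
Levels of 9 retinoic acid responsive genes, those named in the text or in this caption, as log2(CPM + 1), by colour, in the 20 libraries ordered by line and day. Foxa1 and Tgm2 are brighter in WT#20D-17 than in the other 3 lines, while Tshz1 is brighter in those lines.

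Over the 20 libraries, which share lines, the members nearest to each other on the log2(CPM + 1) scale were Rarb and Stra6 (Pearson's r = 0.83) and Cyp26a1 and Rarb (0.81), and the farthest apart were Rarg and Stra6 (-0.74). Compared with the 14578 genes whose mean reached 1 CPM, Cyp26a1 was most like Fgf10 (0.99), Axin2 (0.99), a feedback inhibitor of Wnt signalling, and Fhl1 (0.98). Stra6 was most like Rhox9 (0.99), Rara like Smad7 (0.96), Rarb like Tgfb1i1 (0.96) and Crabp1 like Cmas (0.93). Rarg was most like Dcp1b (0.90), Crabp2 like C8g (0.86) and Aldh1a2 like Ndc80 (0.82), and Cyp26b1, over 14579 genes, like Ccdc80 (0.95). These values describe the 20 libraries, in which WT#20D-17 stood apart.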

How the data were processed

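Per the labels, libraries were made with a stranded Illumina TruSeq mRNA kit; the authors aligned reads to mm10 (GRCm38) with STAR 2.6.0c and deposited RSEM 1.3.1 expected counts for 55573 genes. Expected counts were rounded, and 33860 genes had a nonzero value. The strand setting of the counting was not given in the sources used here. CPM used TMM factors (0.909 to 1.05). Samples were grouped by the labelled line and day; a protocol text gives 10 as the last day, and the titles, day labels and paper 14, which was used.

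Tests used edgeR 4.0.16 in R 4.3.3 at a Benjamini-Hochberg adjusted p of 0.01. Line and day effects came from a quasi-likelihood fit of line and day over 20 libraries and 17827 genes (filterByExpr by day). Genotype used the exact test with TMM factors, which the study names, on the 15 libraries of the lines in the paper and then with WT#20D-17. Which libraries entered the study's own test was not settled here, since the 33860 nonzero genes are those of all 20. DESeq2 1.42.0 and other settings were alternatives, and the tests were checked on simulated data. The simulated libraries were independent of each other, so that check did not cover differences between clones or the dependence among days of a line. All 9 members were named; from each further list at most 3 genes were named, those with the highest absolute log2 fold change that passed, except for results not reported here. Members and lists were chosen with earlier results of these data known. Intervals and the floor of 3 counts cover counting error. Merged exon lengths came from GENCODE M21, and promoters from RefSeq (GRCm38.p6).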

Additional observations from a re-analysis of the deposited data

Results flagged for a closer look

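Rarg was singled out because its course over the days differed among the lines, by a test of the difference between their slopes (adjusted p = 0.000487 in edgeR's quasi-likelihood test, chosen after seeing the data). That test passed 1 of the 9 members, near the 8.74% of all genes that passed it. The slope, in log2 units per step between days, was -0.47 in WT#20D-17, 0.27 in WT#1-4, 0.29 in Nox4-/-#5-8 and 0.18 in Nox4-/-#5-23. The test of genotype by day over all lines gave Rarg an adjusted p of 0.984, and 0.00455 without WT#1-4, where WT#20D-17 alone stood for the wild type.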

How the results depend on the processing

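Where a setting moved a number of genes by over 1.5 times, or of members likewise, it is given here. For differences among the days, 5114 genes passed with DESeq2, 5277 at an adjusted p of 0.05, and 644 genes and 0 members with no replicate block for line (edgeR; 0 members at an unadjusted p under 0.05). With the 3 lines named in the paper 4 members passed, and leaving out 1 line gave 624 to 3978 genes and 0 to 4 members. Genotype by day gave 201 genes with DESeq2, 11 with no filter, 5 at 0.05, and in edgeR 0 without the block and 0 with the 3 named lines (256 and 2541 at an unadjusted p under 0.05). Leaving out a line gave 0 to 605 genes and 0 to 2 members, Rarg and Crabp2 passing without WT#1-4. Slopes by line gave 1558 genes and 1 member. Day 14 against day 0 gave 2567 to 5839 genes and 1 to 4 members without 1 line. Slopes, and lines left out for day 14, were chosen after seeing the data.

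Between genotypes, 8751 genes and 6 members passed against WT#20D-17 alone, 4101 genes against both WT lines, 0 genes and 0 members with counts summed per line, 1221 genes and 1 member at 0.001, and 1 member after the filter on low counts. Leaving out a line or day gave 1114 to 1994 genes and 1 to 3 members. With a block for day, 2758 genes and 3 members passed, with Crabp2 gained (log2 fold change 1.51, adjusted p = 0.00232) and Stra6 lost (adjusted p = 0.0377). Without 1 day, the WT lines differed in 4967 to 7496 genes and 3 to 6 members, and the Nox4-/- lines in 167 to 825 genes and 0 to 1 member, against 1383 genes and 2 members with DESeq2.

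Directions turned for values that had not passed. Between genotypes Aldh1a2 was -1.83 against WT#20D-17, -1.11 against both WT lines and -1.01 with summed counts, and Rarg was 0.472, 0.0174 and 0.0382 under the same settings. Without 1 line or day, Aldh1a2 went from -1.44 to 1.16 and Crabp1 from -0.184 to 1.57, both lowest without Nox4-/-#5-8. On day 14, Rarb went from -0.438 without WT#20D-17 to 3.96 without WT#1-4, and Crabp1 from -0.132 without Nox4-/-#5-8 to 1.67. Between the Nox4-/- lines, Cyp26b1 went from -0.0584 to 0.466 and Rara from -0.161 to 0.056. The cause was not tested. With 1 library per line and day and 2 lines per genotype, differences between clones and between genotypes cannot be told apart by replication alone, and a difference in Cyp26b1 or Stra6 between the Nox4-/- lines, at 0 to 3 counts per library, was not detectable at this depth.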
